A study of Equus caballus with 8 samples.

Results

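Keratins are the intermediate filament proteins of epithelial cells. A filament is built from pairs of 1 type I and 1 type II chain, so that a cell makes both types together, and the pair chosen marks the kind of epithelium. KRT18 (type I) and its partner KRT8 (type II) form the filaments of single-layered epithelia such as the luminal and glandular lining of the uterus, where KRT7 and KRT19 are also made. KRT4, KRT78 and KRT80 (type II) and KRT17 (type I) are best known, from human and mouse work, in stratified epithelia, and KRT17 is also known as a keratin of injured or stressed epithelium.

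The keratins described here are a list of 8 genes, several of them chosen by their measured values, which differed in opposite directions between the pregnant and the cyclic state. Of the 8, 6 were found in the count table by matching symbols to NCBI Gene IDs, out of 24942 IDs in all: KRT4, KRT7, KRT17, KRT18, KRT78 and KRT80. No ID matched KRT8 or KRT19, which are not analysed here. As the pregnant and cyclic libraries were used in choosing the genes, this contrast is a description for them and supports nothing. All 6 passed the filter on low counts. KRT17 would have passed it on its pregnant libraries alone, since 3 of 4 cyclic and 4 of 4 pregnant libraries were above the filter's level of 0.610 CPM. CPM is a gene's counts relative to the size of its library. The filter uses the unscaled size, and all other CPM values use the scaled size.

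Endometrial RNA came from transcervical biopsies of 4 Bavarian Warmblood mares, each sampled once on Day 12 of pregnancy and once on Day 12 of the oestrous cycle, in random order. All mares received 1500 IU of chorionic gonadotropin (human) to bring on ovulation and were inseminated with semen of 1 stallion, which the labels state without naming the state. The uterus was flushed before each biopsy, and pregnancy means that ultrasound showed a vesicle before the flush. The 4 cyclic and 4 pregnant libraries form 4 pairs. The library of mare 1 in pregnancy was the shallowest at 9.81 M counts, and the other 7 held 15.5 to 16.7 M. EPCAM, an adhesion protein of epithelia, had 466 to 568 CPM over the 8 libraries. A biopsy mixes epithelium, stroma, vessels, muscle and leukocytes, and fewer cells of a type cannot be told apart from less RNA per cell. No transcript lengths were available, so no keratin is ranked against another by its level, and shares and sums of several genes weigh long transcripts more.

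KRT4, a type II keratin that in human stratified mucosa pairs with KRT13, was lower in pregnancy in each mare. Mares 1 to 4 had cyclic levels of 532, 899, 206 and 455 CPM. Their pregnant levels were 149, 199, 98.4 and 276 CPM. The groups overlapped, because mare 3 was the lowest in both states and its cyclic value lay below the pregnant value of mare 4. Within mares the cyclic level was 3.56, 4.52, 2.10 and 1.65 times the pregnant level, and the fitted log2 fold change was -1.45 ± 0.29 (SE, 4 pairs).

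KRT78, another type II keratin, known in human and mouse from stratified epithelia, was lower as well. Its cyclic values were 26.7, 53.5, 65.1 and 55.5 CPM and its pregnant values 10.1, 19.7, 14.85 and 35.5 CPM in mares 1 to 4. Mare 1 was the lowest in both states, and its cyclic value fell inside the pregnant range. The log2 fold change was -1.39 ± 0.26, near that of KRT4, but the mares ranked differently: the widest gap was in mare 3 for KRT78 (4.39 times) and in mare 2 for KRT4. KRT4 and KRT78 are separated only by KRT79 in the coding gene order of a RefSeq horse assembly. KRT79 had 0 to 3 counts per library, so the gene between them had almost no reads.

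The keratins of single-layered epithelium were lower by less. KRT7, a type II keratin of glands and ducts, had cyclic levels of 154, 299.7, 224 and 261.5 CPM and pregnant levels of 119, 161, 138 and 196 CPM. The groups overlapped through mare 1, the lowest in both states. The log2 fold change was -0.59 ± 0.10, which is a cyclic level 1.51 times the pregnant one.

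KRT18, the type I partner of KRT8, had cyclic levels of 452, 612.5, 397 and 388.5 CPM and pregnant levels of 347.5, 472, 348 and 319 CPM. Mare 2 was the highest in both states, and its pregnant value exceeded the cyclic values of the other 3 mares. The log2 fold change of -0.31 ± 0.08, a cyclic level 1.24 times the pregnant one, was the smallest of the 6. The reads of KRT18 may include some of an overlapping long non-coding RNA, because the library kit does not mark the strand and such a gene overlaps it in the RefSeq table. Processed copies of KRT18 are known in mammalian genomes, so its counts also depend on how reads with several matches were treated, which is not given in the sources used here.

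KRT17, the type I keratin associated in human and mouse with hair follicles, basal cells and injured epithelium, was higher in pregnancy. Its cyclic levels were 1.16, 0.754, 1.43 and 0.434 CPM, resting on 7 to 23 counts per library. Its pregnant levels were 2.49, 6.64, 3.21 and 7.22 CPM, on 25 to 122 counts. The groups did not overlap, and the pregnant libraries fell into a lower pair (mares 1 and 3) and a higher pair (mares 2 and 4). Mare 4 went from the lowest cyclic to the highest pregnant value, a 16.6-fold difference, against 2.14-fold, 8.81-fold and 2.25-fold in mares 1, 2 and 3. The fitted log2 fold change was 2.29 ± 0.51.

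KRT80, a type II keratin which in human epithelia lies near desmosomes, was higher by less. Cyclic levels were 2.45, 3.33, 2.73 and 3.78 CPM and pregnant levels 6.17, 6.51, 3.88 and 5.33 CPM, on 38 to 101 counts per library. The groups did not overlap, but only narrowly: the lowest pregnant value, of mare 3, was just above the highest cyclic value, of mare 4. The log2 fold change was 0.81 ± 0.19. In the assembly KRT80 lies next to KRT7, which was lower in pregnancy.

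Set side by side, KRT4, KRT78, KRT7 and KRT18 were lower and KRT17 and KRT80 higher in all 4 mares. Of the 6, 6 had an adjusted p below 0.05 in edgeR's quasi-likelihood test, 4 lower and 2 higher, where 16.7% of all 15342 genes tested did so (8.19% lower and 8.53% higher). As this contrast was used in choosing the keratins, nothing is read from that count or from how it shifts. With no mare as block, 1 of the 6 (KRT17) was below 0.05. Without mare 1 there were 2 (KRT7 and KRT17) and without mare 2 there was 1 (KRT7). KRT17 and KRT80 were the 2 of the 6 whose groups did not overlap. Of all genes tested, 10.7% had groups without overlap (6.0% higher and 4.73% lower in pregnancy).

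**Figure D1:**
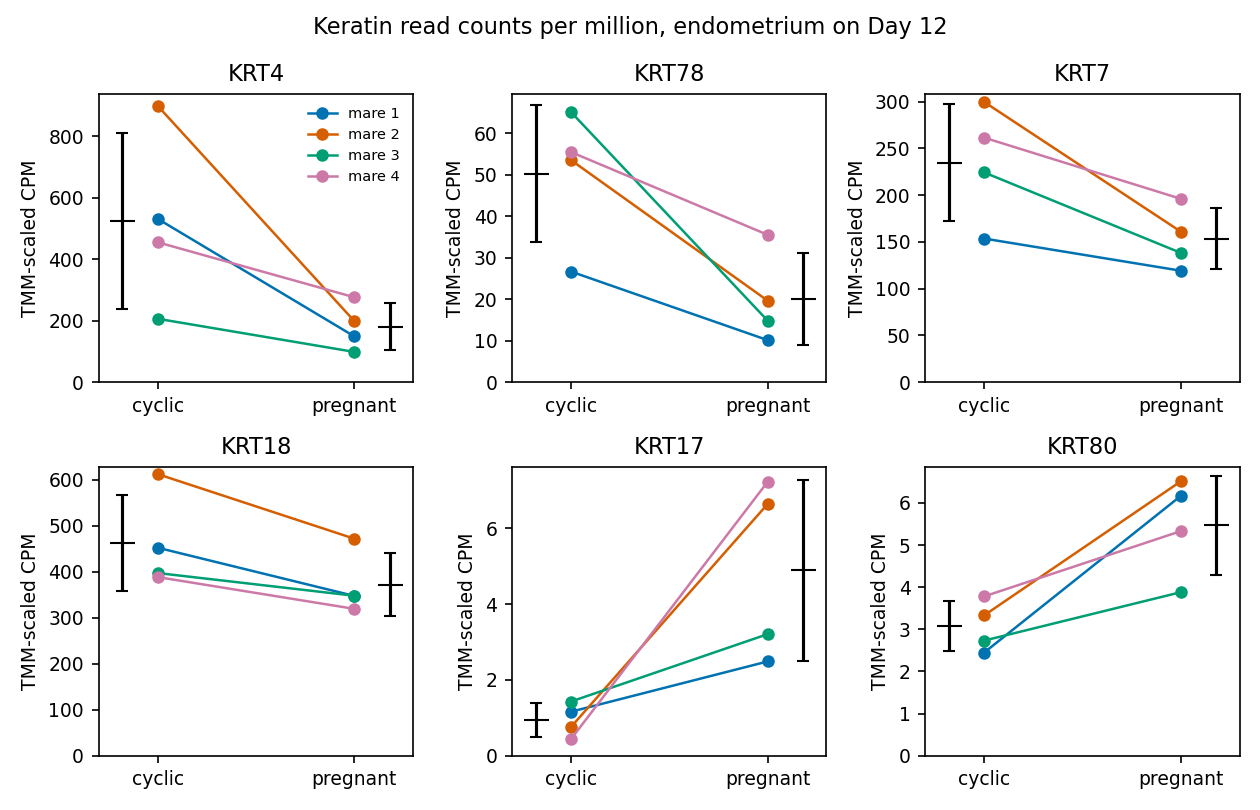
TMM-scaled CPM (vertical axes, each from 0 and on its own scale) of 6 keratins in the cyclic and the pregnant library of each mare, joined by a line; black bars are the mean ± SD of 4 mares. Every line runs down for KRT4, KRT78, KRT7 and KRT18 and up for KRT17 and KRT80, and cyclic KRT4 spans 206 to 899 CPM.

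KRT4 was lower in pregnancy even relative to KRT18 of the same library. The ratio of KRT4 to KRT18 counts, which does not depend on how libraries are scaled, was 1.18, 1.47, 0.519 and 1.17 in the cycle and 0.429, 0.421, 0.283 and 0.865 in pregnancy. On the log2 scale the difference was -1.14 ± 0.60 (SD of 4 mares). The log2 ratio of KRT17 to KRT18 differed the opposite way, by 2.67 ± 1.49, with means of -9.05 and -6.38. Each ratio kept its direction in 4 of 4 mares.

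The ratio of KRT7 to KRT18 was nearer to level. It was lower in pregnancy in 3 of 4 mares, with a mean log2 difference of -0.29 ± 0.27 (SD), and mare 1 had ratios of 0.340 (cyclic) and 0.343 (pregnant). The ratio of KRT4 to KRT78 had no common direction. Its mean log2 difference was -0.05 ± 0.79, and in mare 3 alone it was higher in pregnancy.

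Because filaments need both chain types, the type II members (KRT4, KRT7, KRT78 and KRT80) were also summed against the type I members (KRT17 and KRT18). The log2 ratio of the sums was 0.75 ± 0.33 (SD, n = 4) in the cycle and -0.10 ± 0.51 in pregnancy. The difference was -0.86 ± 0.41, in the same direction in 4 of 4 mares and smallest in mare 4 (-0.34). The sums consist mostly of KRT4, KRT7 and KRT18 counts, so the difference largely repeats that of KRT4, a chosen gene. Without KRT4, the log2 ratio of KRT7 to KRT18 differed by -0.29 ± 0.27 and was lower in 3 of 4 mares. The sums lack KRT8 and KRT19, so they are not the whole balance of the tissue. The 6 keratins held 88.1 to 94.5% of the counts of the 57 genes with a keratin symbol, a share that leaves out KRT8, KRT19 and any keratin whose ID carries no keratin symbol.

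**Figure D2:**
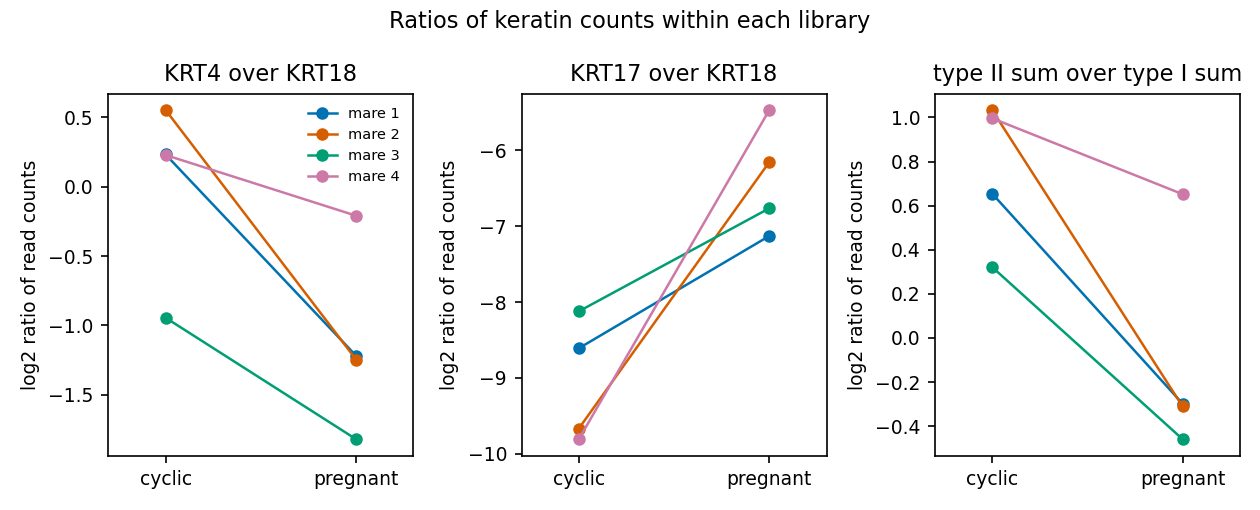
Log2 ratios of read counts within each library (vertical axes) in the cyclic and the pregnant state, with a line per mare. KRT4 over KRT18 and the type II over the type I sum run down in every mare, and KRT17 over KRT18 runs up; mare 4 has the smallest drop of KRT4 over KRT18 (log2 -0.44) and the largest gain of KRT17 over KRT18 (4.34).

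The level of some keratins differed between mares over both states. The choice of the genes did not use differences between mares. The test is not fully free of that choice, since it shares its residual spread with the contrast between the states. KRT18 was highest in mare 2, with a mean over both states of 542 CPM, and lowest in mare 4, with 354 CPM (edgeR test of the 3 mare terms, adjusted p = 0.0162). KRT7 had a mean of 230.3 CPM in mare 2, 229 CPM in mare 4 and 136 CPM in mare 1 (adjusted p = 0.0193). Of the 6 keratins these 2 passed, where 15.9% of all genes tested did. For KRT7, mare 1 was the lowest in each state, while mare 2 was the highest in the cyclic and mare 4 in the pregnant libraries.

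The widest span between mares was that of KRT4, from 152 CPM in mare 3 to 549 CPM in mare 2, but with the spread of its pairs it missed the threshold (adjusted p = 0.157). It passed in DESeq2 (adjusted p = 0.0450) and in limma-voom (adjusted p = 0.0452). KRT78 had 18.4 CPM in mare 1 and 36.6 to 45.5 CPM in the others (adjusted p = 0.156). It passed in DESeq2 (3.59e-04), without mare 3 (0.0235) and without mare 4 (0.0296). KRT17 (adjusted p = 0.843) and KRT80 (0.413) did not pass. The call of KRT18 was lost without mare 2 (adjusted p = 0.481) and with library totals as scaling (0.0563), and that of KRT7 without mare 1 (0.214). With 1 library per mare and state, a difference between mares in the size of the pregnancy change cannot be tested.

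Most of the rest of the family was hardly read. Of 51 other keratin genes, 10 passed the low-count filter, and 0 of these changed with pregnancy in edgeR's quasi-likelihood test (1 at an unadjusted p under 0.05), beside 16.7% of all genes. Their median log2 fold change was 0.03, with 0.00 over all genes tested. These others are what remained after keratins that differed with state were chosen, so nothing is read from that count or median. Nearest to the threshold was KRT75, a type II keratin of hair follicles in human and mouse, with 14.0 ± 5.39 CPM in cyclic and 7.65 ± 0.782 CPM in pregnant libraries (SD, n = 4; edgeR adjusted p = 0.0865). KRT75 was lower in pregnancy in each mare. Its groups did not overlap (lowest cyclic 8.94 CPM, highest pregnant 8.55 CPM), as for 4.73% of all genes in this direction. It passed in DESeq2 (adjusted p = 0.0166) and without mare 3 (adjusted p = 0.0261).

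KRT10A and KRT10B stood nearly level between the states. KRT10A was at 23.8 ± 8.10 CPM (cyclic) and 24.6 ± 7.67 CPM (pregnant; adjusted p = 0.740), and KRT10B at 21.6 ± 7.19 and 21.8 ± 6.27 CPM (adjusted p = 0.881). Both differed between mares (adjusted p = 0.00282 and 0.00378). Their counts kept a ratio of 1.06 to 1.15 in every library, so the pair may share reads, and each value is uncertain. KRT76 had 4.13 ± 0.606 and 4.31 ± 0.717 CPM (adjusted p = 0.863). KRT9, a pseudogene in the RefSeq table, was the other keratin that differed between mares (adjusted p = 0.0269).

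**Figure D3:**
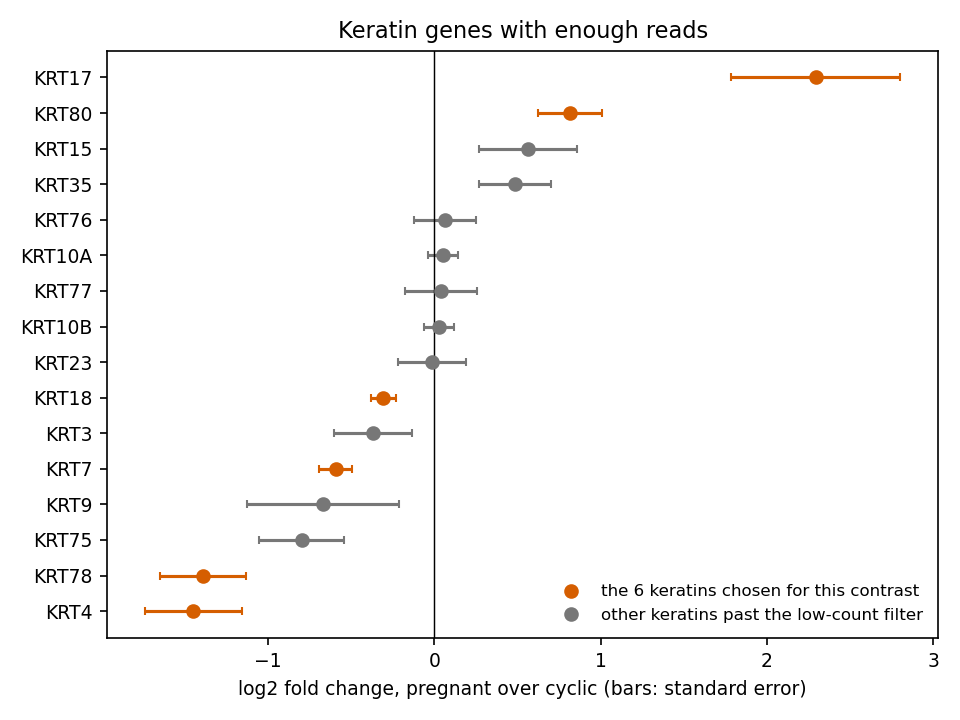
Log2 fold change, pregnant over cyclic (horizontal axis), with its standard error, for the 16 keratins past the low-count filter. The 6 chosen keratins (orange) hold both ends, from KRT4 at -1.45 to KRT17 at 2.29, as their choice implies, and the 10 others (grey) lie between -0.80 and 0.56.

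The usual partners of the stratified keratins had few reads. KRT13 had 1, 21, 3 and 2 counts in the cyclic and 0, 30, 20 and 4 counts in the pregnant libraries of mares 1 to 4. KRT16, which pairs with KRT6 and is made beside KRT17 in injured human and mouse skin, had 0 to 3 counts, and KRT6A, KRT6B and KRT6C had 0 or 1. A library at 0 may still hold up to 3 counts by counting error alone, or 0.169 to 0.298 CPM depending on its depth. Of the 41 keratins below the filter, 33 stayed under 10 counts in every library, of which 7 were at 0 in all.

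A basal cell keratin stood out in 1 mare. KRT5, the type II keratin of basal cells, had 46 counts in the cyclic and 306 in the pregnant library of mare 4, and at most 1 in the other 6 libraries. KRT14, its type I partner, had 17 counts in the pregnant library of mare 4 and at most 2 elsewhere. TP63, the regulator of basal cells, had 35 and 114 counts in the cyclic and pregnant libraries of mare 4 and 4 to 14 in the others; KRT20, a keratin of human gut and urothelium, had 39 and 71 there and at most 5 elsewhere. TFAP2A, an epithelial transcription factor, had 133 counts in mare 4 when pregnant and 5 to 32 elsewhere. Among pregnant libraries KRT17 had 122 counts in mare 4 and 103 in mare 2, where KRT5 had 1 and TP63 had 4. In the cyclic library of mare 4, where KRT5 had 46 counts, KRT17 had 7, the fewest of any library. Not every such gene was high in mare 4. DSG3, a listed marker of stratified squamous epithelium, had 1 count in each library of mare 4 and 0 to 5 elsewhere. KRT15, another keratin, had 27 (cyclic) and 95 (pregnant) counts in mare 4 and 33 to 85 elsewhere. The part of basal cells in the KRT17 values was not tested.

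Of the 12 markers listed for stratified squamous epithelium, 10 were in the table and 2 were tested. Of these 2, 0 changed in edgeR's quasi-likelihood test (TP63, adjusted p = 0.261, and DSC3, adjusted p = 0.0710), beside 16.7% of all genes. At an unadjusted p under 0.05 there was 1. DSC3 passed in DESeq2, in limma-voom and without mare 3. Its cyclic libraries had 51.45 to 67.24 CPM and its pregnant libraries 13.1 to 39.37 CPM. The summed level of the list was 53.3 to 73.2 CPM (cyclic) and 17.3 to 67.3 CPM (pregnant), and involucrin (IVL) was at 0. Most of that sum was DSC3, a desmosomal cadherin, at 58.9 ± 6.48 and 28.2 ± 11.1 CPM.

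Markers of epithelium in general had a median near 0. Of 15 epithelial markers tested, 3 rose and 2 fell, with a median log2 fold change of -0.09. Over all genes tested, 8.53% rose and 8.19% fell, with a median of 0.00. CDH3, placental cadherin, rose from 0.752 ± 0.187 to 2.90 ± 0.863 CPM (adjusted p = 0.00152), and MUC1, a cell surface mucin, and EHF, an epithelial transcription factor, rose 1.58-fold and 1.86-fold. PROM1, a membrane protein of apical protrusions, and ESRP2, a splicing regulator, fell (log2 fold changes -0.36 ± 0.08 and -0.26 ± 0.07). The calls of MUC1, EHF and PROM1 were lost with no mare as block, that of MUC1 also without mare 4, and that of EHF without mare 2, 3 or 4. The call of ESRP2 was not checked under the alternatives. The summed level of the 15 was 1848 to 2032 CPM (cyclic) and 1877 to 2097 CPM (pregnant).

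Set against that sum within each library, the keratins kept their order. The mean log2 difference was -1.47 for KRT4, -1.42 for KRT78, -0.61 for KRT7 and -0.33 for KRT18. It was 0.81 for KRT80 and 2.35 for KRT17, and each had 1 direction in 4 of 4 mares. These ratios describe the chosen keratins and test nothing.

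Genes of desmosomes, the cell junctions to which keratin filaments attach, moved both ways. Of 13 genes listed, 10 were tested, of which 2 rose and 3 fell (8.53% and 8.19% over all genes), with a median log2 fold change of 0.00. DSC2, a desmosomal cadherin, went from cyclic levels of 133, 162, 116 and 162 CPM to pregnant levels of 85.5, 96.8, 76.7 and 97.6 CPM, with no overlap (log2 fold change -0.68 ± 0.06; adjusted p = 4.09e-04). DSG2, another cadherin, fell 1.31-fold, and DSP, the plakin that ties keratins to the junction, fell from 538 ± 68.5 to 428 ± 78.7 CPM (adjusted p = 0.0167). PKP1, a plakophilin known mainly from stratified epithelia in human and mouse, rose from 3.22, 2.20, 3.85 and 5.51 CPM to 11.0, 18.1, 12.4 and 11.8 CPM (log2 fold change 1.86 ± 0.30; adjusted p = 0.00889). JUP, plakoglobin, rose and was only just below the threshold (log2 fold change 0.35 ± 0.11, adjusted p = 0.0476 in edgeR's quasi-likelihood test). Its call was not checked under the alternatives. The call of DSP was lost with library totals, with no mare as block and without mare 1 or mare 3, that of DSG2 with no mare as block, and that of PKP1 without mare 1 (adjusted p = 0.0582).

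Hemidesmosomes anchor keratins to the basement membrane. Of 13 hemidesmosome and plakin genes, 5 rose and 0 fell (8.53% and 8.19% over all genes), with a median log2 fold change of 0.16. LAMB3, a laminin chain of epithelial basement membrane, rose from 15.7 ± 7.34 to 74.8 ± 25.6 CPM. PPL, periplakin, which links keratins to the cell cortex, rose 1.37-fold (adjusted p = 0.00566), and ITGB4, the integrin that holds keratins at the hemidesmosome through plectin, rose 1.39-fold (adjusted p = 0.0312). The call of ITGB4 was lost with no mare as block and without mare 1, 2 or 3, and that of PPL with no mare as block.

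Other intermediate filament proteins include vimentin, desmin and the nuclear lamins. Of 9 tested members of a list of 14 other intermediate filament genes, 4 rose and 0 fell (8.53% and 8.19% over all genes; median log2 fold change 0.56). VIM, the vimentin of stromal and endothelial cells, rose from 404 ± 35.8 to 593 ± 43.4 CPM (adjusted p = 0.00294), and DES, the desmin of muscle, 1.68-fold. SYNM, which joins desmin and vimentin filaments, and LMNA, a nuclear lamin, rose 1.56-fold and 1.26-fold. The call of VIM held under each alternative run, those of the other 3 did not: DES was lost without mare 1 or 2, SYNM with no mare as block, and LMNA with no mare as block and without mare 1, 2 or 4.

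Among 17 tested genes for proteins that bind, fold or modify keratins, 2 rose and 0 fell (8.53% and 8.19% over all genes), with a median log2 fold change of -0.09. AGR2, a protein disulphide isomerase of secretory epithelia, rose from 55.2 ± 3.96 to 106.5 ± 11.5 CPM (adjusted p = 2.04e-04), and YWHAQ, a 14-3-3 protein, 1.34-fold. Of 27 tested epithelial transcription regulators, 6 rose and 4 fell (8.53% and 8.19% over all genes; median 0.11). KLF5, a regulator of epithelial growth, rose from 152 ± 24.9 to 249.8 ± 32.8 CPM (adjusted p = 5.16e-04), with FOSL2 and KLF6 1.38-fold and 1.33-fold higher. ZNF750, which drives differentiation of stratified epithelium in human skin, fell from 38.4, 61.4, 50.3 and 55.5 CPM to 24.7, 31.4, 30.5 and 44.1 CPM in mares 1 to 4, so that it was lower in each (log2 fold change -0.66 ± 0.10; adjusted p = 0.00286). The call of ZNF750 was lost with no mare as block (adjusted p = 0.105), that of KLF6 there and without mare 1, and that of FOSL2 without mare 1 (adjusted p = 0.0519).

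Some markers of other cells in the biopsy rose, beside 8.53% of all genes, and their part in the keratin values was not tested. Of 7 endothelial markers, 7 rose (CLDN5 3.00-fold, PECAM1 1.84-fold, CDH5 1.83-fold and TIE1 1.87-fold), with a median log2 fold change of 0.88, and their summed level was 385 to 546 CPM (cyclic) and 690.1 to 1188 CPM (pregnant). Of 6 smooth muscle markers, 3 rose (median 1.49), with CNN1 at 2.26 ± 1.58 and 10.2 ± 3.11 CPM, LMOD1 1.77-fold higher and DES as above. Their sum was 145 to 308 CPM (cyclic) and 295 to 516.5 CPM (pregnant), overlapping through the cyclic library of mare 4. Of 6 stromal markers, 3 rose (DPT 2.09-fold, PDGFRB 1.62-fold and DCN 1.36-fold; median 0.42), and the sums overlapped, at 1695 to 2650 and 2115 to 2447 CPM. Of 7 leukocyte markers, 3 rose (CD14, CD79A and CD3D, median 0.50), with sums of 102 to 166 and 138 to 163 CPM. CD79A rests on 4 to 13 counts per cyclic and 13 to 35 per pregnant library, and passed the low-count filter through its pregnant libraries. Of 5 ciliated cell markers, TPPP3 rose 1.28-fold, and of the mesothelial markers only WT1 passed the filter, rising 1.37-fold; the sums were 93.1 to 250.0 and 129 to 235 CPM for ciliated cells, and 8.42 to 13.7 and 12.1 to 16.1 CPM for mesothelium. With no mare as block the calls of PDGFRB, DCN, CD79A, CD3D, TPPP3 and WT1 were lost, and without a mare those of CD3D (mare 1, 2 or 4), TPPP3 (mare 1) and WT1 (each mare, and in DESeq2).

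The conceptus is also rich in keratins, since trophoblast is an epithelium. Of its 12 markers, CDX2 and HAND1 were at 0 in every library, ESRRB had at most 1 count, and 9 passed the filter (median log2 fold change 0.57). Of these 9, 2 rose and 0 fell, beside 8.53% and 8.19% of all genes tested, whose median was 0.00. TFAP2C rose 2.04-fold, from 1.37 ± 0.303 to 2.79 ± 0.356 CPM (adjusted p = 0.0171), and HOPX 1.49-fold (adjusted p = 0.0141). Their calls were lost with no mare as block and without mare 1, and also without mare 3 (TFAP2C) or mare 4 (HOPX). The summed level of the list overlapped, at 335 to 398 CPM (cyclic) and 304 to 351 CPM (pregnant), most of it GATA2, which had 2924 to 5786 counts per library.

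**Figure D4:**
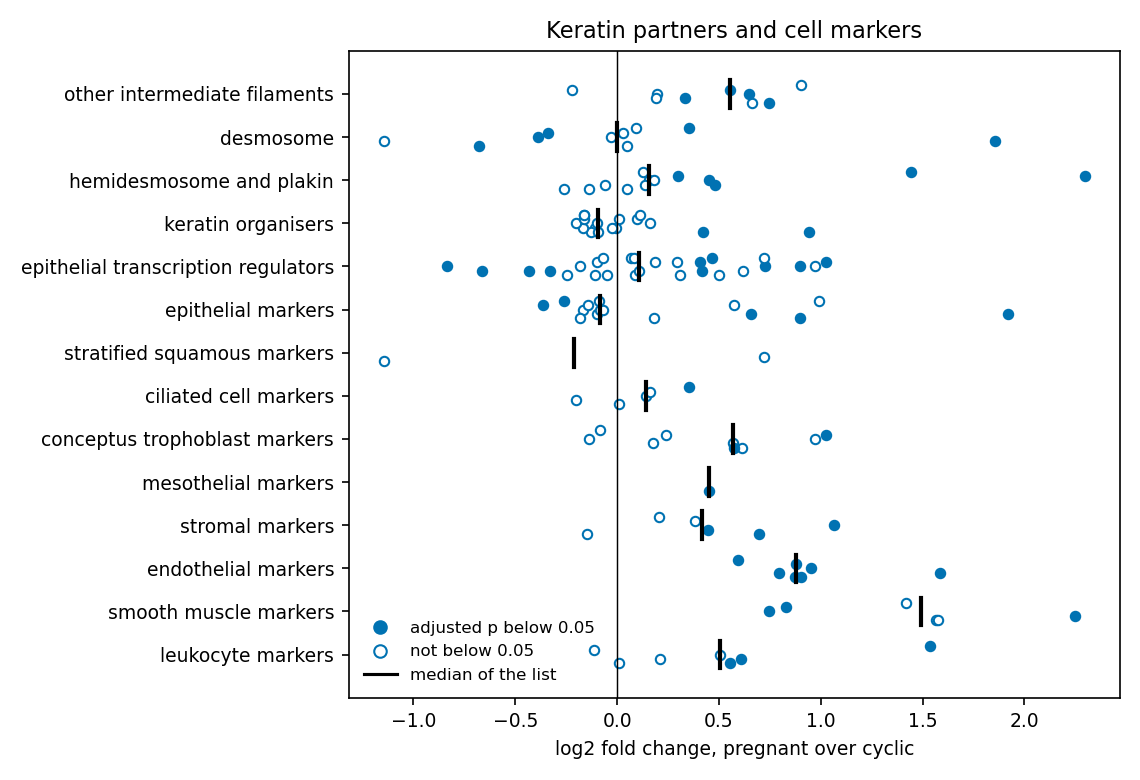
Log2 fold change, pregnant over cyclic (horizontal axis), of each tested gene of 14 lists of keratin partners and cell markers; filled points have an adjusted p below 0.05 in edgeR's quasi-likelihood test, and black ticks are list medians. The medians of epithelial markers and desmosome genes lie at -0.09 and 0.00, and those of endothelial and smooth muscle markers at 0.88 and 1.49.

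The genes whose levels followed each keratin most closely over the 8 libraries were found among 12720 named genes with a mean of at least 1 CPM, by Pearson's r of log2 CPM. The libraries share mares and states, so r is a description only. For KRT4 they were MORC4 (r = 0.995), RNF128 (0.989), an E3 ubiquitin ligase, and RAB32 (0.977), a small GTPase. For KRT7 they were LNPK (0.991), MFSD14B (0.983) and PPP2R5B (0.981), and for KRT78 SPIRE2 (0.975), TRAF4 (0.973) and STX16 (0.972). KRT18 was followed by COMMD4 (0.971), ATP5F1D (0.966), a subunit of the mitochondrial ATP synthase, and HINT3 (0.966). KRT17 was followed by SPACDR (0.991), GRAMD1A (0.97) and SMAD6 (0.955), an inhibitor of BMP signalling, and KRT80 by ANXA3 (0.953), an annexin, STXBP6 (0.953) and MAP3K20 (0.939). The 6 keratins themselves were left out of the candidates, so how closely they followed one another is not shown by these lists. No other keratin stood among the 3 nearest genes of any of the 6.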

How the data were processed

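Messenger RNA of 8 endometrial biopsies was sequenced. The authors deposited raw read counts per NCBI Gene ID. The submitters' processing notes list HISAT2 2.0.3 and Trimmomatic 0.32.2, and the sources used here give no build, annotation or counter. A second deposited table holds signal values for 14037 genes, which equal CPM scaled with TMM (trimmed mean of M values), and its gene set served as 1 alternative. There were 0 unused columns of values. Of 24942 IDs, 21420 (85.9%) matched the RefSeq gene table of assembly TB-T2T, which gave names and gene order only.

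The analysis used edgeR 4.0.16 under R 4.3.3. The filterByExpr function (minimum count 10) left 15342 genes, and TMM scaled the libraries. A robust quasi-likelihood F-test fitted state with the mare as block, because the series' design text says that both biopsies came from every mare. Same-mare libraries deviated together (correlations across genes of 0.54, 0.38, 0.48 and 0.47, against at most -0.015 between mares). Deviations were taken from the mean of each state, which by itself pushes the values between mares downward. The 3 mare terms were tested together in the same fit. P-values were adjusted by Benjamini-Hochberg over all genes, with a threshold of 0.05, and "rose" and "fell" mean below it. The SE is the log2 fold change divided by the square root of F. Replicates all differed by more than counting noise (lowest chi-square per degree of freedom 24.6). DESeq2 1.42.0 and limma 3.58.1 (voom) were alternatives, with other scalings and filters, no block, and each mare left out.

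Depth was 9.81 to 16.7 M counts per library; 3 counts are 0.169 to 0.298 CPM. Named are the 6 keratins; other keratins that pass and the 4 of highest mean CPM; per list the 4 passing members of lowest p, or, where none passes, the 2 of highest mean CPM; and 3 alike genes per keratin. KRT5, KRT6A, KRT6B, KRT6C, KRT9, KRT13, KRT14, KRT15, KRT16, KRT20 and KRT79, where named, were chosen after their values were seen. So were EPCAM, ESRP2, JUP, TFAP2A, ESRRB, DSG3 and GATA2. The keratins and lists were chosen with earlier results of these data known. A gene that this rule names is not reported here.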

Additional observations from a re-analysis of the deposited data

Results flagged for a closer look

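Among the 50 genes that the naming rule picked, 100 groups of 4 libraries were checked for a library that stands apart, and chance flags about 1 in 20 groups. The 2 cases found were both in mare 4 in pregnancy. TP63, the regulator of basal cells, had 6.75 CPM there, against 0.258 to 0.787 CPM in the other 3 pregnant libraries. AGR2 had 89.3 CPM there, against 111 to 113 CPM in the others. None of the 6 keratins was among these cases.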

How the results depend on the processing

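Each of the 6 keratins kept the direction of its difference under all 11 alternatives, with log2 fold changes of -1.70 to -1.21 for KRT4, -1.67 to -1.14 for KRT78, -0.67 to -0.50 for KRT7, -0.35 to -0.27 for KRT18, 0.66 to 0.93 for KRT80 and 1.80 to 2.74 for KRT17. The contrast was used in choosing these genes, so the directions and calls are a description. The number of the 6 below the threshold was 6 in the test used, 3 without a low-count filter, 1 with no replicate block (the mare), and 1 to 5 when a mare was left out, lowest without mare 2. Over all genes, 2565 changed, 389 with no replicate block and 1266 (without mare 1) to 2057 when a mare was left out; with library totals as scaling the split was 1416 higher and 864 lower, in place of 1309 and 1256. Differences between mares were found for 2435 genes, 1103 (without mare 1) to 2049 when a mare was left out, and for 2 of the 6 keratins, with 1 under library totals, 4 in DESeq2 and 1 to 3 when a mare was left out. Of the other keratins and listed genes 48 changed, 22 with no replicate block and 33 to 46 when a mare was left out. Without the low-count filter and in the authors' gene set, 1 other keratin passed, KRT5 (log2 fold change 2.52 and 2.53), whose reads came almost all from mare 4; in DESeq2 and without mare 3 that 1 was KRT75. The difference in the balance of type II and type I keratins was -1.03 to -0.69 (log2) when a mare was left out. The cause of these changes was not tested. A balance per coding length was not run, since no transcript or protein lengths were used here. KRT17 and KRT80 rest on at most 122 and 101 counts per library, which limits the precision of their values.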
